A study of Mus musculus with 10 samples.

Results

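The genes that carry glucose sensing and the electrical trigger of insulin release were followed in pancreatic islets. The mice were floxed controls and knockouts meant to lack Grk5 in the insulin-producing β cells. Loss of Grk5 in those cells was not measured apart from the rest of the islet. The set was chosen by name and holds 7 genes, all 7 of them among the 17945 named genes of the table: Slc2a2, G6pc2, Kcnj11, Abcc8, Cacna1c, Cacna1d and Trpm5. Islet RNA was sequenced in 10 libraries from C57BL/6 mice aged 18 weeks. The 5 control libraries are labelled as floxed and carried Grk5 flox/flox alleles without a Cre driver. The 5 knockout libraries are labelled as knockout and carried Pdx1-CreER together with Grk5 flox/flox. All 10 therefore share the floxed alleles, and the groups also differ by the driver itself, a Cre fused to an estrogen receptor fragment and placed under the Pdx1 promoter, which acts when tamoxifen is given. Dosing and the animals' sex were not stated in the sources used here. Nothing in the labels ties a library to its own animal, so p-values refer to the spread among libraries, which may be technical.

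In β cells, glucose enters through a facilitative transporter and is phosphorylated, and its metabolism raises ATP. ATP closes a potassium channel made of a pore subunit and a sulfonylurea receptor, the membrane depolarizes, and L-type calcium channels open, so that calcium triggers the release of insulin granules. A glucose-6-phosphatase of the islet works against glucose phosphorylation, and a calcium-activated cation channel adds to the depolarization. Slc2a2 encodes the transporter GLUT2, G6pc2 the phosphatase, Kcnj11 and Abcc8 the pore Kir6.2 and the receptor SUR1 of the KATP channel, Cacna1c and Cacna1d the pores of the L-type channels CaV1.2 and CaV1.3, and Trpm5 the cation channel.

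The libraries differed in breadth and in one check of the labels. Normalized totals ran from 5534386 to 7358040, and between 10222 and 14632 genes were above 0 in a library. The β-cell markers were high in both groups, with Ins1 and Ins2 taking 12.3% to 17.8% of each library. All 10 markers had log2 fold changes below 0, with a median of -0.22, and 0 had an unadjusted p under 0.05 by limma. Grk5, the targeted gene, averaged 242 ± 112 normalized counts over the controls and 161 ± 74.9 over the knockouts (SD, n = 5 each). Its groups overlapped, and limma gave it an adjusted p of 0.955 at a log2 fold change of -0.55 ± 0.42 (SE). Without controls 2 and 5 it was -0.94 ± 0.47 (SE, unadjusted p = 0.0619 by limma), from a control mean of 305. Esr1, whose product lends its hormone-binding part to CreER, was 1516.7 to 3176.8 in the knockouts and at most 10.5 in controls 1, 3 and 4. It was 2495.0 in control 2 and 773.5 in control 5, which goes against the label of these 2 libraries, so the difference between groups is also given without them for each member and ratio, and for related genes where it moved by over 1.5 times or lost an unadjusted p under 0.05. Correlations and levels per kb are given over all 10 libraries. Acinar transcripts, from the enzyme-secreting cells around islets, also differed between libraries: the 16 markers summed to 21452.2 to 275754.6 in controls and 30928.2 to 85470.6 in knockouts, and all 14 markers tested had lower means on the log2 scale in the knockouts. In whole islets, fewer cells of a type and less RNA per cell cannot be told apart.

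Promoter sequence is shown for Slc2a2 and G6pc2, the members with the highest values per kb of exon. Their fold changes, given below, were not tested against each other. Each line gives the 250 bases before the first RefSeq start on GRCm38.p6, plus strand, at chr3:28697653-28697902 for Slc2a2 and chr2:69210823-69211072 for G6pc2. Capitals mark TAAT on either strand, the core letters that homeodomain factors of the islet such as PDX1 and NKX6-1 bind.
Slc2a2: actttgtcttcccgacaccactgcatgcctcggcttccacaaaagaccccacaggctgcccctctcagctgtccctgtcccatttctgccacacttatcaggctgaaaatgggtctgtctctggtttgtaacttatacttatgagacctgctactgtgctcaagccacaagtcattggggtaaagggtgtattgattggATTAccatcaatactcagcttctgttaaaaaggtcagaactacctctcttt
G6pc2: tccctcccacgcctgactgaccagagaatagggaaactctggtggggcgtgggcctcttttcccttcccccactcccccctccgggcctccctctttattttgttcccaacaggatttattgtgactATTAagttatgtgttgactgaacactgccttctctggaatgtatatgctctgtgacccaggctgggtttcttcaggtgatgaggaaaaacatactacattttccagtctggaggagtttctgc
Each window held 1 match to TAAT, at -51 to -48 from the start in Slc2a2 and at -123 to -120 in G6pc2. TAAT was in 54.9% of the 32817 promoter windows of this length, so a match is common. Neither window held TGTTTAC, a forkhead core present in 3.16% of windows. Each held 1 match to the E-box CANNTG, which 66.2% of windows hold. These are matches of letters and not measured binding.

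Positions of genes refer to GENCODE M21 (GRCm38), since the build behind the table was not stated. Slc2a2, a gene of up to 11 exons, occupies bases 28697903 to 28731359 of the plus strand of chromosome 3. Control libraries 1 to 5 held 2861.4, 2426.7, 3063.8, 3108.6 and 3152.9 normalized counts. Knockout libraries 1 to 5 held 2787.0, 2560.6, 1719.3, 1708.3 and 1824.4. Knockouts 3, 4 and 5 lay below every control, while knockouts 1 and 2 lay within the controls' range, above control 2. All 5 knockouts were below the control median of 3064. The means were 2923 ± 299 and 2120 ± 514 (SD, n = 5 each), and on the log2 scale the fold change was -0.49 ± 0.17 (SE) with 95% limits of -0.85 to -0.13. By limma the p of 0.0103 became 0.942 after adjustment over 11711 genes, so Slc2a2 did not pass. On the log2(value + 8) scale these limits correspond to 55.6% to 91.4% of the control level.

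Without controls 2 and 5 the groups did not overlap for Slc2a2, since the lowest control was then 2861.4 and the highest knockout 2787.0. The log2 fold change was -0.54 ± 0.21 (SE) by limma (unadjusted p = 0.0202, adjusted p = 0.998). Among the 11013 genes tested in that comparison, 2.03% did not overlap in the same direction. The sums of acinar markers did not overlap in this comparison either. They were 90937.3 to 275754.6 in the remaining controls and 30928.2 to 85470.6 in the knockouts. The part of acinar content in the Slc2a2 difference was not tested without controls 2 and 5. With every library kept, the log2 fold change of Slc2a2 was -0.45 with the acinar markers as a covariate. It was also -0.45 with every library kept and scaled to equal Ins1 and Ins2. The authors' deposited table puts Slc2a2 at -0.47 on the log2 scale (adjusted p = 0.600).

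**Figure D1:**
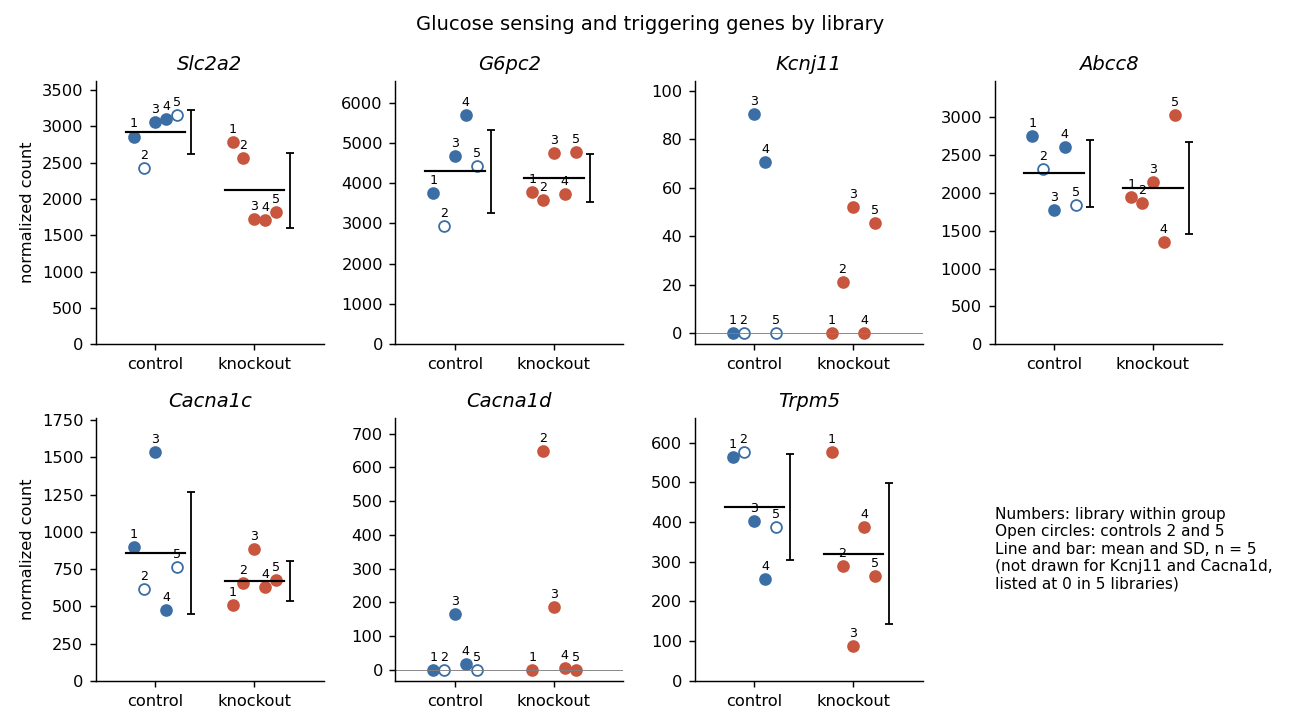
Normalized count of each of the 7 genes (vertical axis, linear) in 5 control and 5 knockout libraries, 1 point per library with its number; the order of libraries within a group has no meaning. Lines and bars are the mean and SD over 5 libraries, not drawn for Kcnj11 and Cacna1d, and open circles are controls 2 and 5. For Slc2a2, 3 knockouts lie below every control; Kcnj11 and Cacna1d sit at 0 in 5 libraries each.

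G6pc2, which encodes the islet glucose-6-phosphatase catalytic subunit, occupies bases 69211073 to 69227841 of the plus strand of chromosome 2. Control libraries 1 to 5 held 3766.5, 2937.7, 4678.5, 5687.4 and 4435.5 normalized counts. Knockout libraries 1 to 5 held 3788.2, 3592.8, 4758.9, 3736.5 and 4773.7. Every knockout lay inside the range of the controls, and controls held both the lowest and the highest value. The means were 4301 ± 1030 and 4130 ± 585 (SD, n = 5 each), with a log2 fold change of -0.035 ± 0.16 (SE) and an adjusted p of 0.990 by limma. Its 95% limits of -0.38 to 0.31 correspond to 76.9% to 124% of the control level, and differences inside these limits were not excluded. Without controls 2 and 5 it was -0.18 ± 0.17 (SE). With every library kept, the direction turned with the acinar covariate, to 0.23.

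The genes of the KATP channel are neighbours on chromosome 7, 3758 bases apart on the minus strand: Kcnj11 from 46093953 to 46100764 and Abcc8 from 46104523 to 46180033. Abcc8, with up to 39 exons, stood at 2757.4, 2309.6, 1775.1, 2607.4 and 1833.7 normalized counts across controls 1 to 5. Knockout libraries 1 to 5 held 1945.3, 1867.9, 2146.3, 1348.0 and 3024.1. Knockout 5 was the highest of the 10 libraries and knockout 4 the lowest, so the knockouts spanned the controls on both sides. The means were 2257 ± 444 and 2066 ± 611 (SD, n = 5 each), and on the log2 scale the fold change was -0.15 ± 0.20 (SE) with 95% limits of -0.58 to 0.27 and an adjusted p of 0.969 by limma. It was -0.30 when knockout 5 was left out, -0.011 when knockout 4 was left out, and -0.23 without controls 2 and 5.

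Kcnj11 was listed at 0 in 5 libraries: controls 1, 2 and 5 and knockouts 1 and 4. In the others it was 90.5 in control 3, 70.8 in control 4, 20.96 in knockout 2, 52.2 in knockout 3 and 45.4 in knockout 5. The groups therefore overlapped fully, and the 5 libraries at 0 were the 5 with the fewest genes above 0, 10222 to 13179 genes against 13280 to 14632 in the other 5. The smallest values above 0 in those 5 libraries ran from 0.336 in control 2 to 0.702 in knockout 1. A link with depth, or with the way reads were counted, was not tested further, because the deposited values do not give read counts. Neither for Kcnj11 nor for Cacna1d does a listed 0 show that the gene is off. The limma log2 fold change, 0.12 ± 0.90 (SE), had 95% limits of -1.77 to 2.00 and an adjusted p of 0.996. It was -0.81 ± 1.0 (SE) without controls 2 and 5, and its annotated exons share no base with another gene.

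Per kb of exon, Kcnj11 reached at most 24.6 normalized counts in any library, while Abcc8 was never under 167. The pore and the receptor assemble in equal numbers in the channel protein, which is background and was not measured here. The log2 ratio of Abcc8 to Kcnj11 took the values 8.43, 8.18, 4.18, 5.05 and 7.85 across controls 1 to 5 and 7.93, 6.02, 5.16, 7.41 and 5.83 across knockouts 1 to 5. The high ratios are those of libraries where Kcnj11 was listed at 0, and they depend on the 8 added to each value. The difference between groups was -0.27, with an exact 2-sided permutation p of 0.817, which adjustment over the 2 ratios computed left at 0.817. The difference was 0.58 without controls 2 and 5. The smallest p that 5 against 5 libraries allow is 0.00794.

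**Figure D2:**
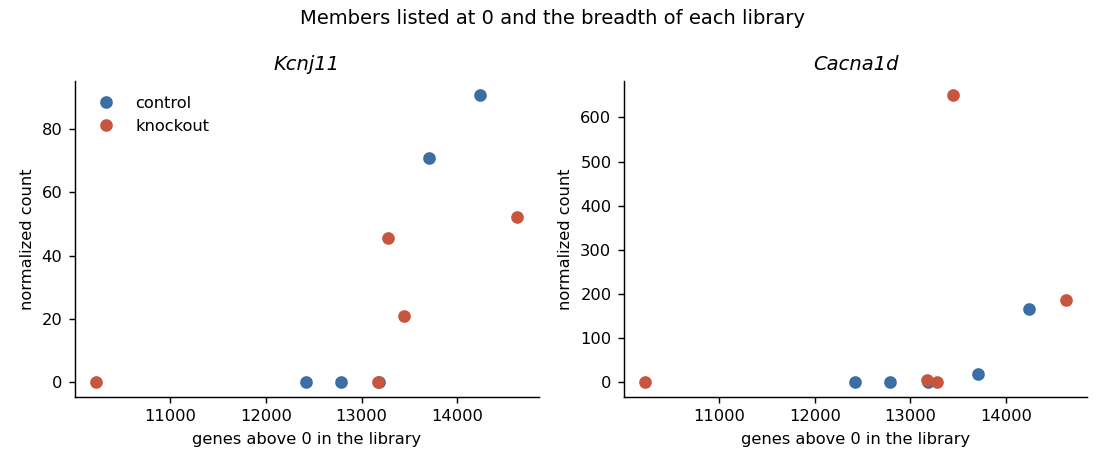
Normalized count of Kcnj11 (left) and Cacna1d (right) against the number of genes above 0 in the same library, with controls in blue and knockouts in red. Each point is a library. Kcnj11 is at 0 in all libraries up to 13179 genes and above 0 in all libraries from 13280 genes; Cacna1d is at 0 in 5 libraries of at most 13280 genes.

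Of the L-type channel pores, Cacna1c was above 0 in every library and Cacna1d was not. Cacna1c, on chromosome 6 from 118587240 to 119196418 on the minus strand, stood at 896.0, 619.5, 1536.5, 474.6 and 767.6 normalized counts across controls 1 to 5. Knockout libraries 1 to 5 held 508.9, 659.5, 884.0, 628.7 and 677.6. All 5 knockouts lay within the range of the controls, of which control 3 stood highest. The means were 859 ± 410 and 672 ± 136 (SD, n = 5 each), and on the log2 scale the fold change was -0.26 ± 0.29 (SE) with 95% limits of -0.86 to 0.34 and an adjusted p of 0.964 by limma. It was -0.020 without control 3 and -0.39 without controls 2 and 5.

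Cacna1d, on chromosome 14 from 30039939 to 30491455 on the minus strand, was listed at 0 in controls 1, 2 and 5 and in knockouts 1 and 5. It was 166.3 in control 3, 18.4 in control 4, 649.7 in knockout 2, 187.7 in knockout 3 and 4.7 in knockout 4. Controls 1, 2 and 5 and knockout 1 were thus at 0 for both Kcnj11 and Cacna1d. Cacna1d was under the level set for testing, at least 10 in 5 libraries, and was the only member so left out. The difference of its mean log2 values, knockout minus control, was 1.09, with an exact 2-sided permutation p of 0.484. It was 0.090 without knockout 2, the library with the highest value, 0.52 without knockout 3 and 0.27 without controls 2 and 5. With no filter on low values limma gave 1.09 ± 1.2 (SE) and an adjusted p of 0.899. In the annotation 4.67% of its exon bases lie opposite exons of Chdh, and whether strand was used in counting was not stated.

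Per kb of exon, Cacna1c was above Cacna1d in 9 of 10 libraries, the exception being knockout 2. The log2 ratio of Cacna1d to Cacna1c took the values -6.82, -6.29, -3.15, -4.19 and -6.60 across controls 1 to 5 and -6.01, -0.02, -2.19, -5.65 and -6.42 across knockouts 1 to 5. The groups overlapped, and the difference of 1.35 had an exact 2-sided permutation p of 0.389, adjusted to 0.778 over the 2 ratios. It was 0.34 without knockout 2, 0.88 without knockout 3 and 0.66 without controls 2 and 5.

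Trpm5 encodes a calcium-activated monovalent cation channel of β cells and of chemosensory tuft cells. It occupies bases 143069153 to 143094642 of the minus strand of chromosome 7, and 3.44% of its exon bases lie opposite exons of Tssc4. Control libraries 1 to 5 held 564.4, 576.1, 403.1, 256.2 and 388.2 normalized counts, and knockout libraries 1 to 5 held 575.5, 290.2, 88.4, 386.7 and 262.9. Knockout 3 was the lowest library and the only knockout below every control, while knockout 1 was close to the highest control. The means were 438 ± 134 and 321 ± 179 (SD, n = 5 each), and on the log2 scale the fold change was -0.60 ± 0.41 (SE) with 95% limits of -1.47 to 0.26 and an adjusted p of 0.942 by limma. It was -0.21 without knockout 3, -0.49 without controls 2 and 5, and -1.13 with the acinar covariate (unadjusted p = 0.0148, adjusted p = 1.0 by limma). Of 6 tuft markers listed, only Dclk1 and Avil were among the named genes, and Pou2f3, Gfi1b, Il25 and Gnat3 were not. Dclk1 and Avil summed to 39.8 to 147.1 in controls and 0.0 to 96.7 in knockouts, and their part in the Trpm5 values was not tested.

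Over the 7 genes, 0 passed by limma at an adjusted p under 0.05, where 0.0% of 11711 genes did. At an unadjusted p under 0.05 there was 1 member, Slc2a2, lower in the knockouts, against 2.66% of genes lower and 2.36% higher. No member had groups that did not overlap, against 0.427% of genes lower and 0.435% higher. Of the 6 members tested, 5 had log2 fold changes below 0, with a median of -0.20, where 52.4% of all genes tested were below 0 and their median was -0.03. The median of the 10 β-cell markers was -0.22. With every library scaled to equal Ins1 and Ins2, Slc2a2 was at -0.45, G6pc2 at -0.0026 and Abcc8 at -0.12. Cacna1c was then at -0.23, Trpm5 at -0.57 and Kcnj11 at 0.13. The part of β-cell content in the members' values was not tested beyond this scaling. Without controls 2 and 5, 0 of 6 members tested passed, where 0.00908% of genes did. The gene passing there was Esr1, whose values were the reason for leaving these 2 controls out. Of the members, 1, Slc2a2, had an unadjusted p under 0.05 by limma (2.27% of genes lower, 1.92% higher). Slc2a2 was also the only one of them whose groups did not overlap (2.03% of genes lower, 1.53% higher). All 6 were then below 0, as were 53.6% of genes. The members' limits differed in width: the residual SD on the log2 scale was 0.263 for Slc2a2, 0.290 for G6pc2 and 0.359 for Abcc8, against a median of 0.835 over all genes tested, but 1.68 for Kcnj11. The authors' deposited table gives adjusted p of 0.999 for the members other than Slc2a2, Cacna1d included. Their log2 fold change for Kcnj11, -0.43 ± 1.98 (SE), is opposite in sign to the 0.12 by limma. For Cacna1d it is 2.19 ± 2.89 (SE). G6pc2 (-0.06), Abcc8 (-0.13), Cacna1c (-0.35) and Trpm5 (-0.47) have the same sign as by limma. By the authors' own test, 19 genes had an adjusted p under 0.05, against 0 by limma here. The reason for this difference was not tested.

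**Figure D3:**
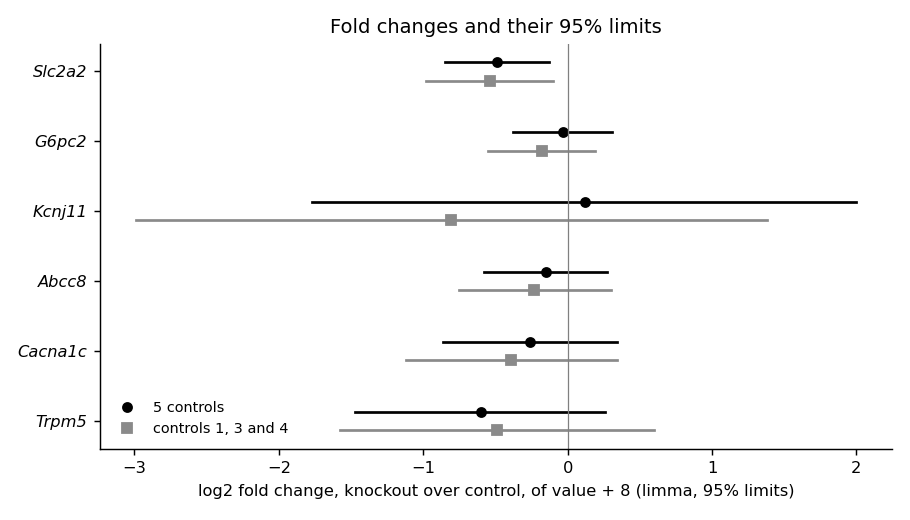
Log2 fold change of value + 8, knockout over control, from limma, with 95% limits as lines, for the 6 members tested. Black circles use 5 controls and grey squares controls 1, 3 and 4. The limits of Slc2a2 stay below 0 in both, and those of the other genes include 0.

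Levels were compared between members per kb of exon, with each base in an exon of any annotated transcript counted once. Such lengths ran from 1974 bases for G6pc2, with 4 transcripts, to 21191 for Cacna1c, with 27. The order of genes can depend on this choice, and the annotation behind the deposited counts was not stated. G6pc2 stood highest, at 1490 to 2880 normalized counts per kb over the 10 libraries, and Slc2a2 followed at 297 to 548. G6pc2 was above Slc2a2 in 10 of 10 libraries, and Slc2a2 above Abcc8, at 167 to 374, in 9 of 10. Abcc8 was above Trpm5, at 13.8 to 90.0, in 10 of 10, and Trpm5 above Cacna1c, at 22.4 to 72.5, in 8 of 10. Cacna1d and Kcnj11 reached at most 51.5 and 24.6, and their order varied between libraries. The places of Slc2a2 against Abcc8 and of Trpm5 against Cacna1c were thus not the same in every library.

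The members were also compared with each other across the 10 libraries. Of 21 pairs, 0 passed after adjustment, and the number was 0 after the group means were subtracted. The highest correlation was between G6pc2 and Kcnj11, with r = 0.74 (permutation p = 0.0131, adjusted p = 0.275) and rho = 0.69 (permutation p = 0.0336, adjusted p = 0.341), and r was 0.68 without controls 2 and 4. Kcnj11 and Trpm5 had r = -0.65 (permutation p = 0.0266, adjusted p = 0.279) and rho = -0.61 (permutation p = 0.0657, adjusted p = 0.341), with r of -0.86 without controls 3 and 4. Kcnj11 and its partner Abcc8 had r = 0.26 (permutation p = 0.460, adjusted p = 0.894) and rho = 0.08 (permutation p = 0.826, adjusted p = 0.927), with r of 0.36 without controls 3 and 4. Both genes of a pair come from the same libraries and share their depth, and Kcnj11 was at 0 in the 5 libraries with the fewest genes above 0.

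Among about 6700 other genes with a mean of at least 100, those most like each member over the 10 libraries were found by Pearson's r and are given as a description, with no test. For Slc2a2 they were Dach1 (r = 0.965) and Clip1 (r = 0.936), with log2 fold changes of -0.49 and -0.58. G6pc2 was most like Sacm1l (r = 0.895) and Chordc1 (r = 0.888), and Abcc8 most like mt-Nd5 (r = 0.965) and Pnpt1 (r = 0.918). Kcnj11 was most like Defb1 (r = 0.967) and Scap (r = 0.920), and Trpm5 most like Mtmr10 (r = 0.925) and Ngfrap1 (r = 0.917). Cacna1c had its highest values with Vipr1 (r = 0.820) and Reg2 (r = 0.815), and Cacna1d with Coa5 (r = 0.860) and Ppp1r9b (r = 0.820). By rho these pairs ran from 0.562 (Cacna1d with Coa5) and 0.564 (Trpm5 with Mtmr10) up to 0.952. Each was picked as highest among about 6700 genes over 10 libraries, and genes measured in the same library share its depth and composition. A high r therefore does not show a link between the genes.

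The wider pathway was described by lists, whose counts are to be read beside all genes tested. Of those, 52.4% were below 0, their median log2 fold change was -0.03, and 0 passed the adjusted threshold. Of the other glucose transporters, 6 of 13 were tested, 4 with lower and 2 with higher values in the knockouts and 0 past the adjusted threshold by limma. Slc2a5, which carries fructose, stood at 603.2, 807.8, 979.6, 734.7 and 656.2 normalized counts across controls 1 to 5 and 922.8, 1037.5, 949.2, 1069.4 and 1171.5 across knockouts 1 to 5. Knockouts 2, 4 and 5 were above every control, and the log2 fold change was 0.46 ± 0.21 (SE, unadjusted p = 0.0401, adjusted p = 0.942 by limma). It was 0.43 ± 0.24 without controls 2 and 5 (SE, unadjusted p = 0.0928 by limma). Slc2a5 had 263 normalized counts per kb on average, against 27.5 for Slc2a1, which encodes the widely expressed transporter GLUT1. Slc2a1 had a log2 fold change of -0.90 ± 0.58 (SE).

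Glucose phosphorylation and glucose-6-phosphatase genes were tested for 3 of 8, and all 3 were lower in the knockouts, with a median log2 fold change of -0.85 against -0.03 over all genes and 0 past the adjusted threshold. Hk1, a hexokinase with high affinity for glucose, was at -1.32 ± 0.69 (SE) and was listed at 0 in knockout 1. G6pc3, the broadly expressed glucose-6-phosphatase, was at -0.85 ± 0.54 (SE), with 4 of 5 knockouts below every control. Slc37a4, which encodes the glucose-6-phosphate translocase, was at -0.65 ± 0.97 (SE) and was listed at 0 in 5 libraries.

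Of the other inward rectifier and sulfonylurea receptor genes, 6 of 14 were tested, 4 higher and 2 lower, with 0 past the adjusted threshold. Kcnj13 was at 1.52 ± 0.69 (SE, unadjusted p = 0.0412, adjusted p = 0.942 by limma) and was listed at 0 in controls 1, 4 and 5 and in knockout 1. Its value without controls 2 and 5 was 1.34 ± 0.85 (SE, unadjusted p = 0.136 by limma). Kcnj12 was at -1.47 ± 0.74 (SE) and was listed at 0 in knockout 1. Kcnj6, a G protein-gated channel, was at 0.32 ± 0.55 (SE), or 0.039 without controls 2 and 5.

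Of the other voltage-gated calcium channel subunits, 12 of 24 were tested, 8 higher and 4 lower (median 0.17), and 0 past the adjusted threshold. Cacna2d1, an auxiliary subunit, was at 0.016 ± 0.26 (SE), with 95% limits of -0.53 to 0.56, or -0.036 without controls 2 and 5, and had the highest level per kb of its list, 76.9. Cacnb2, a cytoplasmic subunit, was at 0.065 ± 0.30 (SE), or 0.14 without controls 2 and 5, and Cacnb1 at 0.88 ± 0.57 (SE), with 4 of 5 knockouts above every control. Cacna1b, the N-type pore, was at -1.15 ± 0.63 (SE).

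Of the other TRP channels, 8 of 25 were tested, 7 lower and 1 higher (median -0.44), and 0 past the adjusted threshold. Trpm7 and Trpc1, the most abundant per kb of these, were at -0.38 ± 0.38 and -0.49 ± 0.51 (SE). The lysosomal channel gene Mcoln1 was at -1.30 ± 0.73 (SE), or -0.64 ± 0.87 (SE) without controls 2 and 5. Mcoln3 was at 0.96 ± 0.83 (SE) and, like Slc37a4, did not reach the filter without those controls.

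Of 15 islet transcription factors, 14 were tested, 9 lower and 5 higher (median -0.25), and 0 past the adjusted threshold. Hnf4a was at -0.57 ± 0.36 (SE), or -0.17 without controls 2 and 5, Mafa at -0.34 ± 0.22, Neurod1 at -0.24 ± 0.18 and Nkx6-1 at -0.22 ± 0.17 (SE).

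**Figure D4:**
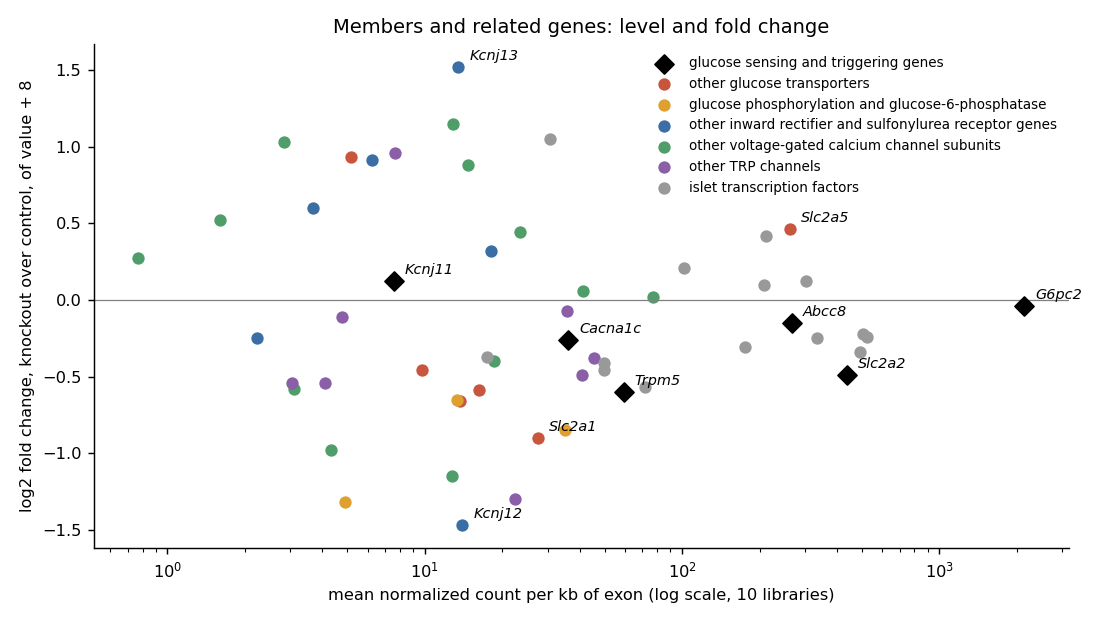
Log2 fold change of value + 8, knockout over control (vertical axis), against the mean normalized count per kb of exon over 10 libraries (horizontal axis, log scale). Each point is a tested gene of the 7 lists, with the members as black diamonds. Members above 200 per kb, G6pc2, Slc2a2 and Abcc8, lie between -0.49 and -0.035, and genes under 20 per kb spread from -1.47 to 1.52.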

How the data were processed

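The deposited values are normalized counts per gene, a signal on a common scale between libraries that the authors made by steps not stated. STAR 2.4.0.1, HTSeq and DESeq2 are listed, without roles, per the submitters' processing notes, and the labels' protocols give ribosomal depletion and a stranded random-primed kit. The build was not stated. Of a library's non-zero values, only 25.0% to 37.0% came within 0.01 of a whole multiple of its commonest low value, so whole reads were not recovered, depth is unknown and no count model was used. The authors' deposited table also holds log2 fold changes and their errors, 1 score per gene, p-values and adjusted p-values, used only where named. Of 17946 rows, 1 had no gene name (0.00774% to 0.0251% of a library) and was left out.

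Genes with at least 10 in at least 5 libraries (11711) were compared on log2(value + 8), which understates changes of low genes, with limma 3.58.1 in R 4.3.3 (trend, robust, Benjamini-Hochberg at 0.05), steps tested on simulated data. Ratios had exact 2-sided permutation tests, and member pairs permutation tests of 100000 resamples. Positions and exon lengths are from GENCODE M21 and promoters from RefSeq on GRCm38.p6 (5 of 7 members have an entry). Python 3.11.15, scipy 1.17.1 and matplotlib 3.10.9 were used. The members and lists were chosen with earlier results of these data known. Related genes were named by p (2 a list) and level per kb (2 a list), and like genes by r (2 a member, without provisional symbols). A planned ratio and 2 related genes are not reported here and are left out of the lists. Alternatives were pseudocounts of 1 and 32, filters, scalings, an acinar covariate, quality weights, plain variance estimates and the omission of libraries.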

Additional observations from a re-analysis of the deposited data

Results flagged for a closer look

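Of 18 groups of 5 values examined (7 genes and 2 ratios in each group), 2 held a library far from the others. Chance alone gives about 1 in 20 such groups where values follow a normal distribution. That rate does not hold for groups with several libraries at 0, as in the 2 flagged. Both flags concern Cacna1d: 166.3 in control 3, with the other controls at 0 to 18.4, and 649.7 in knockout 2, with the other knockouts at 0 to 187.7.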

How the results depend on the processing

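No paired analysis was possible because the labels give no replicate numbers that the groups share. Over all its alternatives Slc2a2 ran from -0.59 to -0.42 (unadjusted p 0.00172 to 0.0952, over 0.05 only with plain variance estimates; adjusted p 0.629 to 1.0 by limma), Abcc8 from -0.30 to -0.011, Cacna1c from -0.44 to -0.020 and Trpm5 from -1.13 to -0.21, each with the same sign and none past the adjusted threshold. For Trpm5 the unadjusted p by limma ran from 0.0148 to 0.545 and was under 0.05 in 3 of 22 settings. These were the acinar covariate (-1.13), quality weights (-0.93) and the omission of knockout 1 (-0.86). G6pc2 reversed with the acinar covariate (0.23) and ran from -0.16 to 0.074 with single libraries left out (0.0036 without control 3, 0.074 without control 4, 0.012 without knockout 2). Kcnj11 ran from -0.81 without controls 2 and 5 to 1.08 with the acinar covariate, was 0.61 with a pseudocount of 1 and -0.045 with one of 32, and ran from -0.23 to 0.49 in the 5 omissions that left it tested. The Abcc8 to Kcnj11 difference reversed without controls 2 and 5 (0.58) and ran from -0.91 to 0.15 with single libraries left out (0.15, 0.09 and 0.01 without controls 1, 2 and 5, 0.06 without knockout 3). The causes were not tested. The number of genes passing, 0, was 1 with plain variance estimates and 1 without controls 2 and 5, and 0 to 1 with single libraries left out, 1 without control 1. The gene passing without controls 2 and 5 was Esr1. Those 2 controls were left out for their Esr1 values, so this pass follows from that choice. A minimum of 50 removed Kcnj11, and covariate, weight and variance alternatives could not be fitted for Cacna1d under the filter. Cacna1d ran from 0.090 to 1.90 with single libraries left out, and was 0.27 without controls 2 and 5. The Cacna1d to Cacna1c difference ran from 0.34 to 1.94 with single libraries left out, and was 0.66 without controls 2 and 5. Depth is unknown for these values, so no counting limit can be given for a value of 0.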
